A study of Mus musculus with 6 samples.

Results

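Stearoyl-CoA desaturase 1 (Scd1) and 9 other genes of de novo fatty acid synthesis were followed across the cell classes, diets and surgery groups of a single-cell RNA-seq study of the mouse jejunal epithelium. The 10 genes (Scd1, Scd2, Fasn, Acaca, Acly, Elovl6, Me1, Srebf1, Mlxipl and G0s2) were found by symbol among 32285 genes in the deposited gene lists, and their unique molecular identifiers (UMIs, 1 for each captured RNA molecule) were summed by cell class and library. Levels are given as CPM, the share of all UMIs of the class and library that fell on the gene, on a per-million scale. The set was proposed after results from these same counts were known, so every level and ratio below describes these libraries and no test is attached to it.

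Male wildtype C57BL/6J mice of 30 weeks at study end received a low-fat diet (LFD) or a high-fat diet (HFD) for 16 weeks and then had sham surgery or vertical sleeve gastrectomy (VSG), an operation that removes most of the stomach. After 3 days on a recovery gel, the mice went back to the diet they had before surgery. Tissue was taken 5 weeks after surgery from mice fasted overnight. The 3 groups were LFD sham, HFD sham and HFD VSG, with 3, 3 and 2 mice pooled within each group, and each pool gave 1 crypt and 1 villus library, 6 in all. With 1 library per group and compartment there was no replicate check, so intervals are exact 95% intervals that cover counting error only and leave out differences between mice.

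De novo lipogenesis builds fatty acids from citrate. ATP citrate lyase (Acly) releases acetyl-CoA from citrate, acetyl-CoA carboxylase (Acaca) turns it into malonyl-CoA, and fatty acid synthase (Fasn) joins these units into palmitate with NADPH that malic enzyme (Me1) helps to supply. Elovl6 lengthens palmitate and Scd1 and Scd2 place a double bond in saturated acyl-CoA, while the transcription factors SREBP1 (Srebf1) and ChREBP (Mlxipl) switch these genes on in response to insulin and to sugar. G0s2 encodes an inhibitor of adipose triglyceride lipase, the first enzyme of stored fat breakdown. Enterocytes are best known for taking up dietary fat and packing it into chylomicrons.

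Scd1 lies at chr19:44394455-44407879 on the minus strand (GENCODE vM21, GRCm38) and Scd2 at chr19:44293674-44306864 on the plus strand, 87.6 kb away. The remaining members lie at chr11:120805846-120824547 (Fasn), chr11:84129672-84401651 (Acaca), chr11:100476353-100528000 (Acly), chr3:129532355-129638495 (Elovl6), chr9:86581371-86695953 (Me1), chr11:60199089-60222581 (Srebf1), chr5:135089890-135138382 (Mlxipl) and chr1:193272161-193273217 (G0s2). No member overlapped another annotated gene on its own strand, and 6 overlapped a gene on the other strand (Acaca, Elovl6, Me1, Srebf1, Mlxipl and G0s2).

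Upstream sequences from RefSeq (GRCm38.p6) matched 8 of the 10 members, all but Scd1 and Scd2. The 3 printed here are the 250 bases before 1 annotated start of Me1 and that of G0s2, the members with the largest ratios between the diets, and of Fasn, which was lowest, among marker-named cell classes, in the one where Scd1 was highest. Capitals mark GC boxes (GGGCGG) in Me1 and G0s2 and NF-Y boxes (CCAAT) in Fasn, on either strand.
Me1, chr9:86695915-86696164, minus strand: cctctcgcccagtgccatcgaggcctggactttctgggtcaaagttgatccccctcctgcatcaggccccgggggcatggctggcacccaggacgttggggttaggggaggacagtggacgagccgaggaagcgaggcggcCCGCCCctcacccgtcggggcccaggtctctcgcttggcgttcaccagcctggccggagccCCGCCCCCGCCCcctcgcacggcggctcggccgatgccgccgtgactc
G0s2, chr1:193273189-193273438, minus strand: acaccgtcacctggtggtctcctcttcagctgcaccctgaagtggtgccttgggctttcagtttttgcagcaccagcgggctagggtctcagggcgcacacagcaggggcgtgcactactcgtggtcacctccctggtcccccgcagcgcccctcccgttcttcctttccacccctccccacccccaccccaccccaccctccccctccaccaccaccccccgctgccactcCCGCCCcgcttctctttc
Fasn, chr11:120824548-120824797, minus strand: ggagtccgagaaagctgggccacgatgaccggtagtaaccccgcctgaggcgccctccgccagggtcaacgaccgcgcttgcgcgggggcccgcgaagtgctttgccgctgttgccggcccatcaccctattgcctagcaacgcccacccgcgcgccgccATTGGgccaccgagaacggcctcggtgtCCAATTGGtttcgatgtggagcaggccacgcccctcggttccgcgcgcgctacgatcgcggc
RefSeq gave 2 upstream sequences for Me1, and the one printed is the first listed, while the other held 0 GC boxes and 1 NF-Y box. The printed Me1 sequence held 3 GC boxes, the nearest beginning 42 bases before the RefSeq start. G0s2 held 1, beginning 18 bases before its RefSeq start. The 2 annotations differ here, since the printed windows of Me1 and G0s2 reach into the GENCODE genes given above. GC boxes were found in 32.7% of 32851 upstream sequences of this length. Fasn held 3 NF-Y boxes, of which the nearest 2 overlap, and 33.8% of all sequences held at least 1. The SREBP site TCACNCCAC, found in 1.05% of all sequences, occurred once among the 8 members with a sequence, in one of Mlxipl. Scd1 and Scd2 had no sequence to search. These matches describe letters in a window and not bound sites.

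Called barcodes held 60522766 to 155522445 UMIs per library, and 24060 barcodes passed filters, 22825 of them epithelial. Median UMIs per passing barcode ran from 9506 in LFD sham crypts to 30386 in HFD VSG villi. The crypt and villus labels went against the markers. Stem-, cycling progenitor- and Paneth-like cells made up 5.35, 6.34 and 10.2% of epithelial cells in the crypt libraries of LFD sham, HFD sham and HFD VSG, and 23.0, 17.6 and 34.2% in the villus libraries. The words crypts and villi below are therefore library labels. Any 2 libraries shared between 1 and 10 passing barcode sequences, at most 0.26% of the smaller library.

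One group of barcodes bore on Scd1 before any comparison. Enterocyte-like cells, 5 clusters named from absorptive markers, included cluster 12, led by the immune genes H2-Aa, Cd74 and Igkc and the acute-phase gene Saa1. In LFD sham villi, 65 barcodes of cluster 12 had 3 or more UMIs of 10 B cell genes, a limit chosen after their values were seen, and those 65 held all 64 Scd1 UMIs of the cluster there (390 CPM, interval 300 to 498). Their median was 2389 UMIs in total and 18 UMIs of 10 enterocyte genes, against 1336.5 enterocyte gene UMIs in the other 56 barcodes, which held no Scd1 UMI. In HFD VSG villi, 121 barcodes of enterocyte- and immune-like cells met the same limit and none held a Scd1 UMI, which allows a share of up to 2.48% (3 counts of 121) at a median of 6798 UMIs. In LFD sham villi the barcodes of cluster 12 with Scd1 thus had B cell genes and few enterocyte genes. In the other libraries cluster 12 held 0 to 8 Scd1 UMIs, none of them in barcodes over that limit. Values for LFD sham villi are given with and without them, and figures of enterocyte-like cells leave them out where stated.

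Scd1 was read mainly in absorptive cells. Among the marker-named classes its level was highest in enterocyte-like cells in 6 of 6 libraries. Its median there was 10.2 CPM over libraries, all barcodes included, against 1.21 CPM in cycling progenitor-like, 0.642 CPM in goblet-like and 0.0821 CPM in stem-like cells. Immune-like cells, in the 5 libraries with enough of them, had a median of 2.20 CPM and reached 6.98 CPM. The unnamed clusters 3, 4 and 6 had Scd1 medians of 3.93, 3.26 and 3.30 CPM, and cluster 4, led by genes of damaged droplets, reached 12.1 CPM on 13 UMIs in LFD sham crypts and 12.6 CPM on 9 UMIs in LFD sham villi. In HFD sham crypts and HFD sham villi the interval of the next class, the enteroendocrine cell (EEC)-like cells, overlapped that of enterocyte-like cells, on only 1 and 2 Scd1 UMIs. In LFD sham villi the next class was immune-like cells at 3.22 CPM, and its upper bound of 7.01 passed the lower bound of 4.29 of enterocyte-like cells without the barcodes with B cell genes (5.35 CPM). With such barcodes taken out of both classes, immune-like cells were at 0.551 CPM (0.014 to 3.07), and the intervals did not overlap. Cluster 2, an absorptive-lineage cluster led by Fabp6, Car4 and Ms4a18 that was left unnamed, lay between, with Scd1 at 10.2, 5.39 and 0.526 CPM in crypts and 2.89, 4.26 and 0.306 CPM in villi of LFD sham, HFD sham and HFD VSG.

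**Figure D1:**
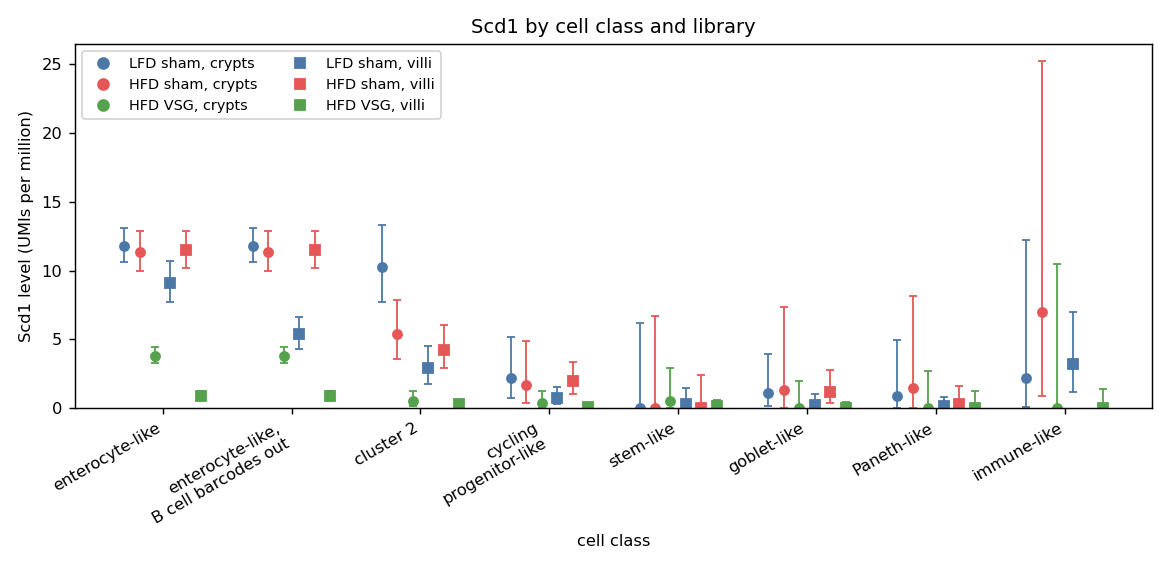
Scd1 level in CPM (y axis) by cell class (x axis), with 1 point per library and exact 95% counting intervals; circles are crypt and squares villus libraries. Enterocyte-like cells of the 4 sham libraries lie between 9.12 and 11.8, and at 5.35 in LFD sham villi once barcodes with B cell genes are out, above both HFD VSG libraries at 3.8 and 0.865. Tuft-like and EEC-like cells, with 0 to 2 UMIs per library, are not drawn.

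Fasn, Acly, Scd2 and Acaca did not share this pattern, and the orders given here and in the next paragraph are among marker-named classes only. Fasn, the enzyme that assembles palmitate, was lowest in enterocyte-like cells in 6 of 6 libraries, with a median of 1.33 CPM against 46.4 CPM in EEC-like, 35 CPM in goblet-like and 29.8 CPM in stem-like cells. Acly was also lowest in enterocyte-like cells in 6 of 6 libraries, at a median of 5.65 CPM against 81.1 CPM in EEC-like and 65.7 CPM in goblet-like cells. Scd2, the second desaturase of the pair, had its lowest level in enterocyte-like cells of 4 libraries and in Paneth-like cells of 2, and its highest in tuft-, immune- or EEC-like cells. Tuft-like cells of HFD sham crypts and immune-like cells of HFD sham villi were too few to rank. The Scd2 intervals of the first 2 classes overlapped in every library, and neither class was enterocyte-like. So within the jejunal epithelium the 2 desaturases were read out in different cells. Unnamed cluster 6 was lower still by its median, at 0.724 CPM for Fasn and 5.04 CPM for Acly. Acaca, which makes malonyl-CoA, was lowest in Paneth-like cells of 4 libraries and in enterocyte-like cells of 2.

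Members that act around the core enzymes followed other orders. Elovl6 was highest in cycling progenitor-like cells in 6 of 6 libraries, at 69.7 to 129 CPM. Me1 was highest in the same class in 5 libraries, with HFD VSG villi the exception, where enterocyte-like cells led. Unnamed clusters also held much of both genes, cluster 2 reaching 146 CPM for Elovl6 with a Me1 median of 77.0 CPM, and cluster 18, in the 2 libraries with enough cells, holding 115 and 149 CPM of Elovl6 and 152 and 175 CPM of Me1. Mlxipl was highest in EEC-like cells in 6 of 6 libraries, at 102 to 371 CPM. Srebf1 was highest in enterocyte-like cells of 4 libraries and in immune-like cells of 2, and G0s2 was highest in enterocyte-like cells of 4. The intervals of the first 2 classes overlapped for Srebf1 in all crypt libraries and LFD sham villi. They also overlapped for Elovl6 in LFD sham and HFD sham villi, for Mlxipl in HFD sham crypts, and for G0s2 in LFD sham and HFD VSG villi. Across 46 pairs of class and library, log2 levels of Fasn correlated with those of Acaca (Pearson's r = 0.84) and Acly (0.79), while Scd1 had r = −0.13 with Fasn and 0.63 with G0s2. In 34 of the 46 pairs Scd1 was below 3 UMIs, so its r values rest on few counted levels. All these correlations are descriptions, since the points share libraries and depth.

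**Figure D2:**
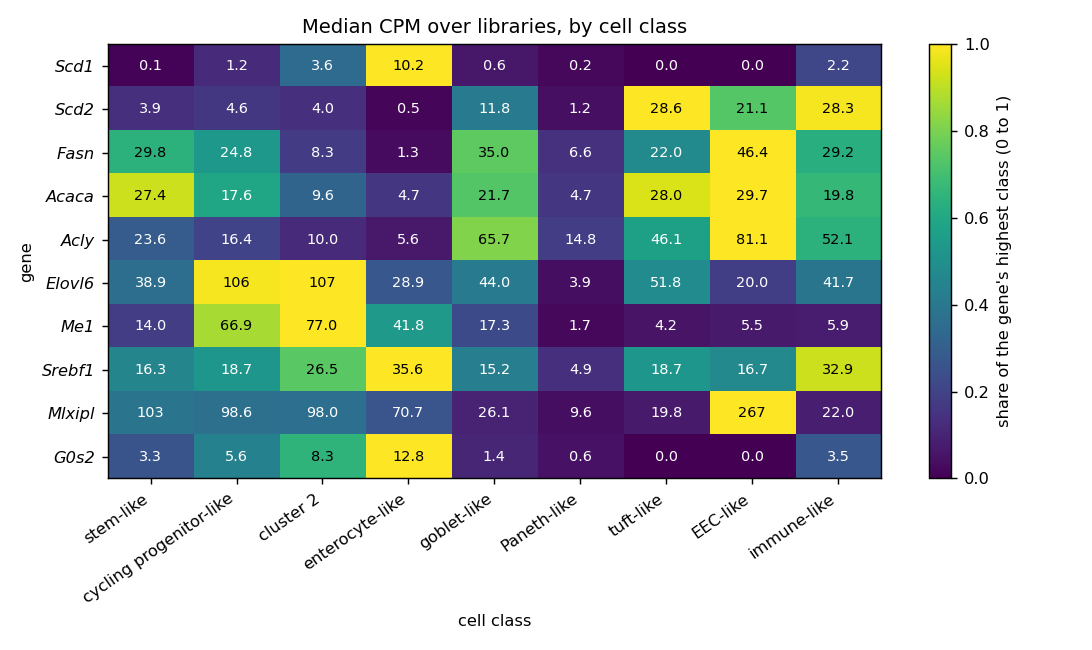
Median level over libraries in CPM (number in each cell) for the 10 genes (rows) by cell class (columns), with colour giving the level as a share of that gene's highest class, from 0 to 1. Scd1 and G0s2 peak in enterocyte-like cells, Fasn and Acly in EEC-like cells with their lowest values among these columns in enterocyte-like cells, and Elovl6 and Me1 in cycling progenitor-like cells and cluster 2.

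The question of what the diet and the surgery changed was put to enterocyte-like cells, of which there were 1942, 1462 and 2477 in crypts and 1107, 1606 and 1049 in villi of LFD sham, HFD sham and HFD VSG. Under HFD, Me1 and G0s2 were higher in both compartments. After VSG, Scd1 was lower than in HFD sham in both compartments, and G0s2 lay between its LFD sham and HFD sham levels. Counting a ratio as past the size limit when it exceeds 0.5 on the log2 scale, among genes whose UMIs averaged 50 or more over the 3 libraries, 3 of 8 measured members passed it for HFD sham over LFD sham in crypts, where 12.6% of 9579 genes did, and 3 of 9 in villi, where 11.7% of 9551 genes did. Between HFD VSG and HFD sham, 3 of 8 members passed in crypts against 8.83% of all genes, and 5 of 9 in villi against 35.7%. The villus count of members is thus to be read against a comparison in which many genes of any kind passed. Scd2 and Fasn in crypts and Scd2 in villi fell below the UMI limit. The comparisons of diet and of surgery share the HFD sham library.

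**Figure D3:**
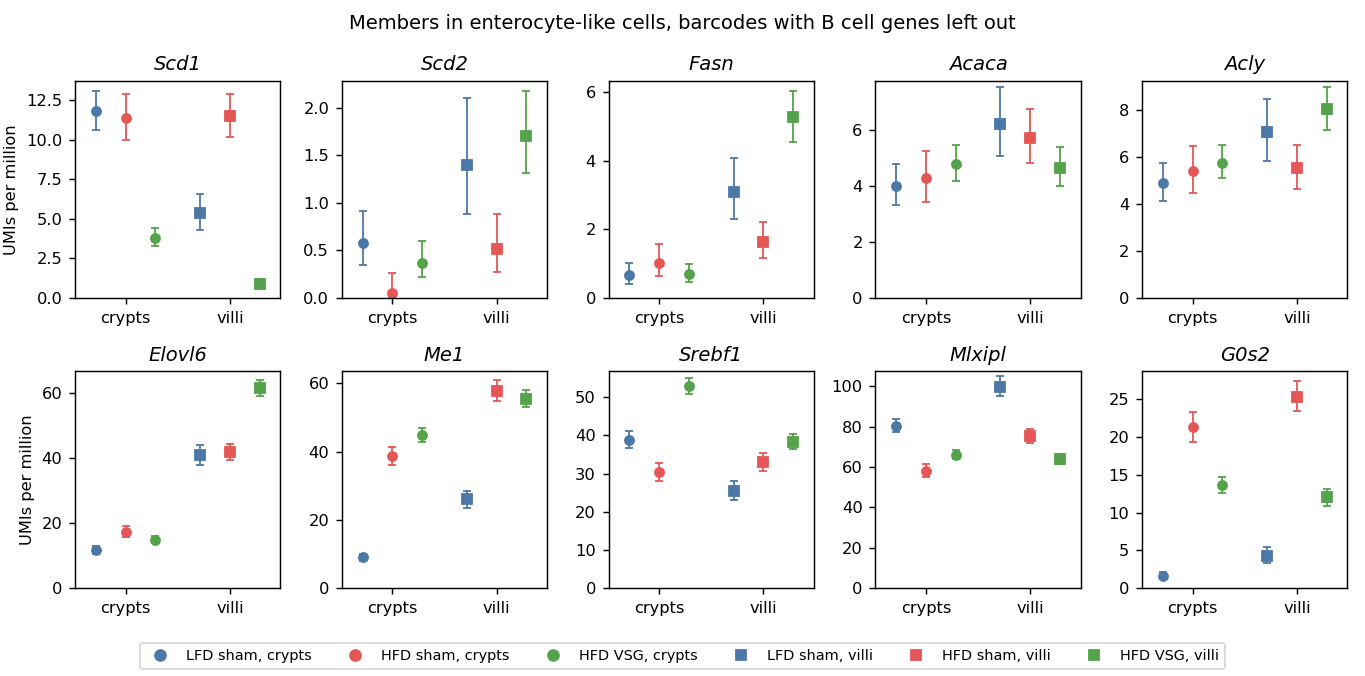
Level in CPM (y axis, from 0) of each of the 10 genes in enterocyte-like cells of the 6 libraries, barcodes with B cell genes left out, with exact 95% counting intervals. Scd1 is lowest in both HFD VSG libraries, Me1 and G0s2 are lowest in both LFD sham libraries, and Fasn and Elovl6 are higher in all villus than in all crypt libraries.

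Scd1 makes oleate and palmitoleate, the main monounsaturated fatty acids. In enterocyte-like cells of crypts its level was 11.8 CPM (10.6 to 13.1, 369 UMIs) in LFD sham, 11.4 CPM (9.97 to 12.9, 242 UMIs) in HFD sham and 3.8 CPM (3.26 to 4.41, 174 UMIs) in HFD VSG. In villi it was 9.12 CPM (7.73 to 10.7, 152 UMIs), 11.5 CPM (10.2 to 12.9, 289 UMIs) and 0.865 CPM (0.595 to 1.21, 33 UMIs), and 5.35 CPM (4.29 to 6.59, 88 UMIs) in LFD sham without the barcodes with B cell genes. The 2 VSG libraries were the lowest, and their intervals did not meet those of any sham library except that of LFD sham villi without those barcodes, whose lower bound of 4.29 lay below the upper bound of 4.41 in VSG crypts. Scd1 was 2.98-fold lower in VSG than in HFD sham in crypts (log2 ratio −1.58, −1.87 to −1.29) and 13.3-fold lower in villi (log2 ratio −3.73, −4.30 to −3.21). Among all genes over the UMI limit, 11 of 9579 in crypts and 3 of 9551 in villi had a lower ratio than Scd1.

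The diet ratio of Scd1 was small in crypts and depended on the barcodes described above in villi. For HFD sham over LFD sham the log2 ratio was −0.06 (−0.30 to 0.18) in crypts and 0.33 (0.04 to 0.62) in villi, or 1.10 (0.75 to 1.46) in villi without the barcodes with B cell genes, which brought the members past 0.5 there to 4, against 10.9% of 9522 genes. When only cells with at most 10% mitochondrial UMIs were kept, 246 LFD sham and 345 HFD sham cells, the villus log2 ratio was −1.67. Those 246 cells include barcodes with B cell genes, which had a median of 7.83% mitochondrial UMIs against 12.4% in the others. With both limits applied, 186 LFD sham cells with 13 Scd1 UMIs and 345 HFD sham cells with 32 remained, and the ratio was 0.56 (−0.41 to 1.61). The lower reading in HFD sham was thus seen only with those barcodes included, among the 13 alternatives tried.

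Scd1 UMIs were spread over many cells. In crypts, 12, 11.6 and 4.32% of enterocyte-like cells of LFD sham, HFD sham and HFD VSG had a Scd1 UMI, and in villi 9.49, 11.5 and 2.38%. After each cell was thinned to 1500 UMIs the shares were 1.64, 1.61 and 0.590% in crypts and 3.00, 1.70 and 0.120% in villi, and 0.789% in LFD sham villi without the barcodes with B cell genes. Both readings put VSG lowest in each compartment. No cell held more than 8 Scd1 UMIs, and 25 of 1049 cells carried the 33 UMIs in VSG villi, so neither the level nor the ratio rested on a single cell. A summed count cannot tell fewer cells with Scd1 from less Scd1 RNA per cell. Immune-like cells, taken here as the background for free RNA, had a Scd1 UMI in at most 2.33% of cells at medians of 2007 to 6048 UMIs, against medians of 14763 to 34829 UMIs in enterocyte-like cells.

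**Figure D4:**
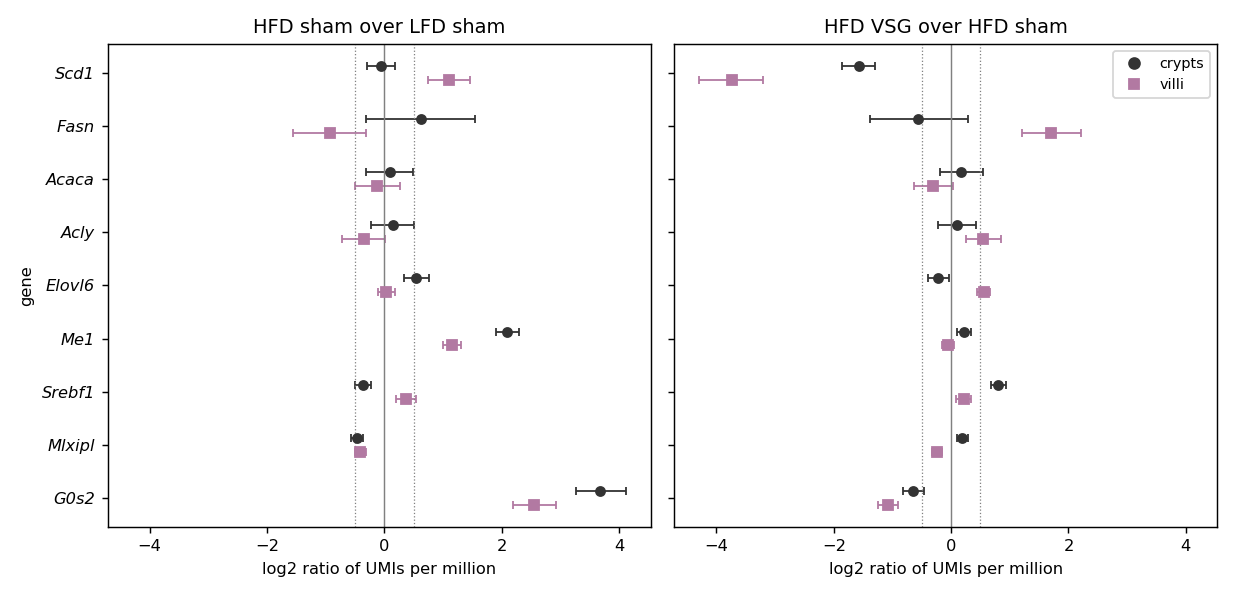
Log2 ratio of CPM (x axis) for 9 of the 10 genes (y axis) in enterocyte-like cells with barcodes with B cell genes left out, HFD sham over LFD sham on the left and HFD VSG over HFD sham on the right; circles are crypts, squares villi, bars exact 95% counting intervals, and dotted lines mark 0.5 in either direction. Me1 and G0s2 lie far right for the diet and Scd1 far left for VSG, and crypts and villi sit farthest apart for Fasn and Scd1 in both panels, followed by G0s2 and Me1 on the left and Elovl6 and Srebf1 on the right; Scd2 is not drawn.

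Scd2 was rare in enterocyte-like cells, with 18, 1 and 17 UMIs in crypts and 25, 13 and 66 UMIs in villi of LFD sham, HFD sham and HFD VSG. Its villus level was 0.516 CPM in HFD sham and 1.73 CPM in VSG, a log2 ratio of 1.74 (0.87 to 2.73), in the other direction from Scd1. The 2 desaturase genes thus differed in direction between HFD sham and VSG in villi, with few Scd2 UMIs behind the comparison. Of the Scd2 UMIs, 60.2% in HFD sham and 80.7% in LFD sham villi could be free RNA by the estimate from immune-like cells described further down. With the stated fractions these shares were 68.0 and 17.0%.

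Of the enzymes from citrate to palmitate, Acly and Acaca gave small ratios in crypts. Acly ran from 4.90 to 8.10 CPM and Acaca from 4.0 to 6.42 CPM over the 6 libraries. For both genes the log2 intervals of both crypt comparisons included 0, with ratios of 0.09 to 0.17. In villi, Acly had a log2 ratio of −0.43 (−0.79 to −0.07) for HFD sham over LFD sham and 0.55 (0.26 to 0.85) for HFD VSG over HFD sham. Fasn was 0.672, 1.03 and 0.700 CPM in crypts and 3.24, 1.63 and 5.27 CPM in villi of LFD sham, HFD sham and HFD VSG. Its villus libraries were all above its crypt libraries, and its crypt log2 ratios of 0.62 (−0.31 to 1.55) for HFD sham over LFD sham and −0.56 (−1.39 to 0.29) for HFD VSG over HFD sham had intervals that included 0. In villi the Fasn log2 ratio was −0.99 (−1.62 to −0.38) for HFD sham over LFD sham and 1.69 (1.20 to 2.22) for HFD VSG over HFD sham, where 107 of 9551 genes had a higher ratio. Both villus ratios rest on the HFD sham level of 1.63 CPM, of which 95.4% could be free RNA by an estimate from only 5 immune-like cells, and 100% with the stated fraction, as described further down. The Fasn order in enterocyte-like cells of villi, lowest in HFD sham and highest in VSG, was the reverse of the Scd1 order. Over all epithelial cells of villi Fasn was 17.6, 11.3 and 16.7 CPM, so HFD sham was again lowest but VSG was not highest. The log2 ratio there was 0.56 (0.42 to 0.69) for HFD VSG over HFD sham, where 46.4% of 12275 genes were past 0.5, and −0.081 (−0.19 to 0.031) for HFD VSG over LFD sham.

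Elovl6, which turns palmitate into stearate and so makes a substrate of Scd1, was 11.9, 17.4 and 14.9 CPM in crypts and 40.5, 41.9 and 61.4 CPM in villi. Its 3 villus libraries were all above its 3 crypt libraries. The log2 ratio for HFD sham over LFD sham was 0.55 (0.34 to 0.76) in crypts and 0.05 in villi, and that for HFD VSG over HFD sham was −0.22 (−0.40 to −0.03) in crypts and 0.55 (0.45 to 0.66) in villi.

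Me1 makes NADPH from malate and was the enzyme with the largest diet ratio. Its level was 9.05 CPM in LFD sham, 38.7 CPM in HFD sham and 44.9 CPM in HFD VSG crypts, and 25.8, 57.8 and 55.6 CPM in villi. Both LFD sham libraries were below all 4 HFD libraries. Me1 was 4.27-fold higher in HFD sham than LFD sham in crypts (log2 ratio 2.10, 1.90 to 2.30) and 2.24-fold higher in villi (log2 ratio 1.16, 1.01 to 1.32), where 7 and 70 genes had higher ratios. The VSG ratio over HFD sham was 0.21 (0.10 to 0.33) in crypts and −0.06 (−0.15 to 0.04) in villi, both within 0.5 over the whole class, though not in each cluster. The share of cells with a Me1 UMI, thinned to 1500 UMIs, was 1.09, 4.97 and 6.29% in crypts and 2.64, 7.47 and 7.34% in villi.

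G0s2 restrains the release of fatty acids from lipid droplets. It was 1.66 CPM (52 UMIs) in LFD sham, 21.3 CPM (453 UMIs) in HFD sham and 13.6 CPM (622 UMIs) in HFD VSG crypts, and 4.26 CPM (71 UMIs), 25.3 CPM (637 UMIs) and 12 CPM (458 UMIs) in villi. The order of the 3 groups was the same in both compartments, with no overlap of intervals. G0s2 was 12.8-fold higher in HFD sham than LFD sham in crypts (log2 ratio 3.68, 3.26 to 4.12) and 5.94-fold higher in villi (log2 ratio 2.57, 2.21 to 2.94), and 1 gene in crypts and 5 in villi had higher ratios. In VSG the log2 ratio over HFD sham was −0.64 (−0.82 to −0.47) in crypts and −1.08 (−1.25 to −0.90) in villi.

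The transcription factor genes gave smaller diet ratios than Me1 and G0s2. Srebf1 was 38.9, 30.3 and 52.9 CPM in crypts and 25.3, 33.0 and 38.2 CPM in villi of LFD sham, HFD sham and HFD VSG. VSG had the highest Srebf1 level in each compartment, but the order of the 2 sham groups differed between compartments. The Srebf1 log2 ratio was −0.36 (−0.50 to −0.22) in crypts and 0.38 (0.21 to 0.55) in villi for HFD sham over LFD sham, and 0.80 (0.68 to 0.93) and 0.21 (0.09 to 0.34) for HFD VSG over HFD sham. Mlxipl was 80.4, 58.1 and 66.1 CPM in crypts and 99.1, 75.3 and 63.7 CPM in villi, so that LFD sham was highest in each. Its diet log2 ratio was −0.47 (−0.57 to −0.37) in crypts and −0.40 (−0.49 to −0.30) in villi, both short of the 0.5 limit.

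Against LFD sham, VSG cells had higher Me1 and G0s2 and lower Scd1 in both compartments. The log2 ratio of HFD VSG over LFD sham was 2.31 in crypts and 1.11 in villi for Me1, and 3.03 in crypts and 1.49 in villi for G0s2. For Scd1 it was −1.63 (−1.90 to −1.37) in crypts and −3.40 (−3.99 to −2.85) in villi, or −2.63 (−3.25 to −2.04) in villi without the barcodes with B cell genes. With at most 10% mitochondrial UMIs it was −1.02 (−2.12 to 0.039) in crypts, an interval that includes 0, and −4.57 (−5.37 to −3.83) in villi, or −2.34 (−3.42 to −1.21) there without those barcodes. In all, 3 of 8 members passed 0.5 in crypts, where 14.3% of genes did, and 7 of 9 in villi, where 38.7% did, the 5 higher ones being Fasn, Elovl6, Me1, Srebf1 and G0s2.

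Enterocyte-like clusters were compared one by one, since their mix can differ between libraries. Over clusters and compartments with at least 10 Scd1 UMIs in each library compared, Scd1 was lower in VSG than in HFD sham in 4 of 4 pairs, those of clusters 0 and 1 (log2 ratios −4.12 to −0.78), and lower than in LFD sham in 5 of 5. HFD sham over LFD sham gave higher Scd1 in both villus pairs, 1.30 (0.84 to 1.78) in cluster 0 and 0.73 (0.11 to 1.39) in cluster 1, and ratios of 0.021 and −0.09 in the 2 crypt pairs. With the same minimum for each gene, Me1 was higher in HFD sham than LFD sham in 5 of 5 pairs (0.096 to 2.14) and G0s2 in 2 of 2 (2.03 and 2.89), both of cluster 0. For HFD VSG over HFD sham, Me1 was higher in 7 of 10 pairs (−0.15 to 1.07), with 0.60 (0.36 to 0.85) in cluster 1 crypts, 0.76 (0.12 to 1.47) in cluster 10 villi and 1.07 (0.40 to 1.78) in crypts and 0.71 (0.19 to 1.25) in villi of cluster 12. G0s2 was lower in VSG than in HFD sham in 4 of 4 pairs, and Srebf1 was higher in 8 of 9. Cluster 1 fell below that minimum for G0s2 in LFD sham, where crypts held 3 UMIs and villi 4, against 156 and 199 after HFD feeding and sham surgery. In cluster 0, the largest, Scd1 was 12.3, 12.5 and 1.82 CPM in crypts and 4.66, 11.4 and 0.659 CPM in villi. In cluster 1 it was 14.0, 13.2 and 7.70 CPM in crypts and 9.58, 15.9 and 2.48 CPM in villi. VSG was thus the lowest library in each compartment of both clusters. Cluster 2, outside the class, had a VSG log2 ratio over HFD sham of −3.36 (−5.09 to −1.96) in crypts and −3.80 (−5.13 to −2.65) in villi for Scd1.

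**Figure D5:**
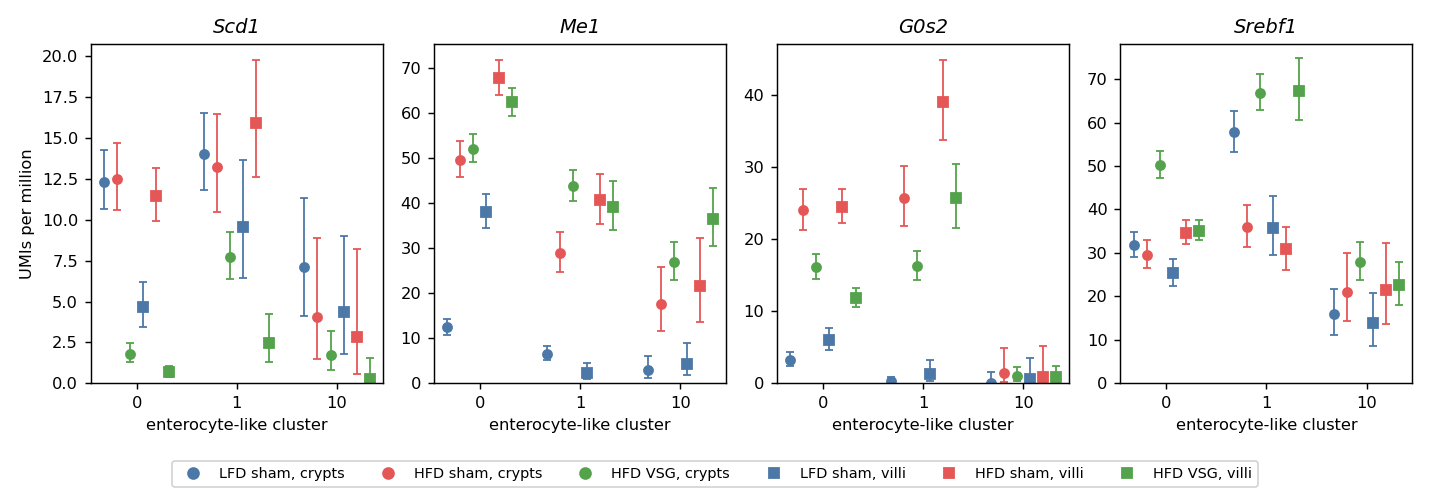
Level in CPM (y axis, from 0) of Scd1, Me1, G0s2 and Srebf1 in enterocyte-like clusters 0, 1 and 10 (x axis), with 1 point per library and exact 95% counting intervals; circles are crypt and squares villus libraries. In clusters 0 and 1, Scd1 is lowest in VSG within each compartment and Me1 and G0s2 are lowest in LFD sham, and G0s2 is near 0 in cluster 10 in all 6 libraries.

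Outside enterocyte-like cells, members with enough UMIs were compared within each class. In cycling progenitor- and goblet-like cells of villi, many genes of any kind were lower in HFD VSG than in HFD sham. Of all genes, 7.39 and 4.92% were past 0.5 there, against the 33.2 and 29.5% past −0.5 given below. In cycling progenitor-like cells of villi, 6 of 9 members were past −0.5 for HFD VSG over HFD sham, among them Elovl6 (log2 ratio −0.78), Me1 (−0.73), Mlxipl (−0.72) and G0s2 (−1.22), and 33.2% of 9860 genes were past −0.5 in that comparison. Scd1 itself had 13 UMIs in HFD sham and 2 in VSG there. In goblet-like cells of villi 4 of 8 members were past −0.5, where 29.5% of 8145 genes were, with Mlxipl at −1.64 (−2.05 to −1.23). In crypts, Me1 was the 1 of 7 members past 0.5 in either direction for HFD sham over LFD sham in cycling progenitor-like cells, against 13.8% of 6702 genes. The Me1 level in that class was 57.8, 96.0 and 71.6 CPM in crypts and 62.1, 77.6 and 46.8 CPM in villi.

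Other genes of the pathway were grouped by role, and counts give genes past 0.5 over genes measured in enterocyte-like cells. Of those that supply acetyl-CoA and NADPH, 1 of 8 was higher and 0 lower for HFD sham over LFD sham in crypts, and 1 of 9 higher and 1 lower in villi. The higher gene in both was Idh1, a cytosolic source of NADPH, at 0.55 in crypts and 0.95 in villi. For HFD VSG over HFD sham, 1 of 8 was higher and 1 lower in crypts, and 1 of 9 higher and 3 lower in villi, where Idh1 was at −1.21 and Me2 at −0.91 and Aacs, which activates acetoacetate, at 1.55. Idh1 and Me1 thus differed in VSG villi, since Me1 stayed near its HFD sham level.

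Of 4 measured genes of other fatty acid synthesis, 0 passed in either direction in 3 of these comparisons, and 3 were higher and 1 lower for HFD VSG over HFD sham in villi. Mcat (1.61) and Mecr (1.35), which act in mitochondrial fatty acid synthesis, were higher and Oxsm of the same route was at −0.84. Among 11 measured genes of elongation and desaturation, 0 were higher and 1 lower for HFD sham over LFD sham in crypts, and 1 was higher and 1 lower in villi. The lower gene was the fatty acid elongase Elovl5, at −0.70 in crypts and −1.06 in villi. For HFD VSG over HFD sham, 1 was higher and 1 lower in crypts, and 5 were higher and 1 lower in villi. Fads2, the delta-6 desaturase of polyunsaturated fatty acids, was at 0.67 in crypts and 1.49 in villi, and Cyb5r3, which passes electrons to the desaturases, was at −0.69 and −1.14. The desaturase Fads2 therefore stood on the other side of 0 from Scd1 in both compartments.

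Of 9 genes around SREBP and the liver X receptors, Srebf2, which drives cholesterol synthesis, passed in villi, at −0.77 for HFD sham over LFD sham and 0.88 for HFD VSG over HFD sham, and 0 of 9 passed in crypts. Of 11 ChREBP partner and target genes, 3 were lower and 0 higher for the diet in crypts, and 3 lower and 1 higher in villi. The glucose transporter Slc2a2 was at −1.05 in crypts and −1.01 in villi. The fructose pathway gene Tkfc was at −0.61 in villi, in the direction of Mlxipl itself. Txnip, which binds thioredoxin, went the other way, at 0.36 in crypts and 0.34 in villi, both short of 0.5. After VSG relative to HFD sham, 0 of 11 passed in crypts and 4 were lower in villi, where Txnip was at −1.07 and G6pc at −1.02. Of 7 measured genes of lipolysis and lipid droplets, the droplet coat gene Plin2 was the 1 past 0.5 for the diet, at 0.64 in villi. Hormone-sensitive lipase (Lipe) was the 1 past −0.5 for VSG, at −0.50 in villi. Shares of all genes for these comparisons, in either direction, are the 12.6, 11.7, 8.83 and 35.7% given above. Split by direction, HFD sham over LFD sham had 5.86% of genes higher and 6.71% lower in crypts, and 5 and 6.69% in villi. HFD VSG over HFD sham had 6.3% higher and 2.54% lower in crypts, and 18.3 and 17.5% in villi.

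The genes whose level was most like that of Scd1 over 46 pairs of class and library, among 11090 genes, were Slc2a7 (Pearson's r = 0.97), Cyp2c29 (0.96), Nlrp1b (0.96), Cyp2c23 (0.96) and Lrrc3 (0.95). Scd1 was below 3 UMIs in 34 of those pairs, so the likeness rests mostly on enterocyte-like cells. In that class Slc2a7 was 10.7, 8.44 and 6.34 CPM in crypts and 8.10, 8.62 and 2.31 CPM in villi, and Cyp2c29 was 16.6, 18.0 and 7.50 CPM in crypts and 4.74, 10.2 and 1.60 CPM in villi. Of the 5 genes, 4 were lowest in VSG in crypts and 5 in villi, with Nlrp1b the exception at 5.63 CPM in HFD sham and 5.97 CPM in VSG crypts. They were chosen for following Scd1 over these same libraries, so this adds no support.

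Several other quantities moved with the groups. Droplets with fewer than 100 UMIs hold free RNA. In crypts of LFD sham, HFD sham and HFD VSG their Scd1 level was 5.01, 4.91 and 2.18 CPM. In villi it was 2.78, 2.66 and 0.875 CPM, in the same order. These levels rest on 10, 9 and 10 Scd1 UMIs in crypts and 5, 5 and 4 in villi. Each lay below enterocyte-like cells of its library except in VSG villi, where the 2 levels were 0.875 and 0.865 CPM. The intervals of droplets and enterocyte-like cells overlapped in both VSG libraries. In LFD sham villi they overlapped only without the barcodes with B cell genes. There the droplet upper bound of 6.48 passed the lower bound of 4.29 in enterocyte-like cells. With free RNA shares estimated from immune-like cells, 3.38 to 15.8% of Scd1 UMIs in enterocyte-like cells could be free RNA. The Scd1 level in VSG villi was not above that of the free droplets. For Fasn the same estimate was 55.2 to 100% in crypts and 59.8, 95.4 and 26.9% in LFD sham, HFD sham and HFD VSG villi, and for Scd2 it was 48.6 to 100% in crypts and 80.7, 60.2 and 18.2% in villi. The immune-based share of HFD sham villi came from only 5 immune-like cells, below the minimum of 20 cells used for a class elsewhere. With the free RNA fractions stated in the study's methods in place of these, the Fasn shares were 26.8, 59.0 and 17.4% in crypts and 12.6, 100 and 6.28% in villi, and the Scd2 shares were 13, 100 and 6.15% in crypts and 17.0, 68.0 and 4.25% in villi, in the same order. The 2 estimates were thus both above 50% for Fasn and Scd2 in the HFD sham libraries. In the LFD sham and HFD VSG libraries they were far apart, with the immune-based one the higher. For Scd1 the stated fractions gave 1.27 to 12.1%.

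The summed level of 4 genes that mark damaged droplets was lower after VSG, at 55614, 44825 and 13704 CPM in crypts and 59855, 38000 and 9826 CPM in villi. The summed level of 5 erythroid genes was at 82.5 CPM in enterocyte-like cells of VSG villi and at most 0.90 CPM elsewhere, and that of 12 immune genes was 61.0 and 41.8 CPM in LFD sham and VSG villi against 0.437 CPM in HFD sham villi. Median UMIs per enterocyte-like cell were also highest in VSG villi, at 34829. The part of these in the Scd1 and G0s2 results was not tested. Adipocytes, which carry much Scd1 and G0s2, were checked by 8 markers. Adipoq, Cfd and Lep were at 0 in all cells of all 6 libraries, and the summed list of 24.4 to 57.6 CPM in enterocyte-like cells was nearly all Cidec, which gave 1789 of 1799 UMIs in LFD sham crypts.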

How the data were processed

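Jejunal epithelium was profiled by droplet single-cell RNA-seq (10x 3′ chemistry) in 6 libraries. The deposited values are raw UMI counts per gene and barcode that the authors made with Cell Ranger 6.0.0 against mm10, as filtered matrices and, with an earlier version named in their headers, unfiltered ones, which were used for free RNA alone. The members and lists were chosen with earlier results of these data known.

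From the filtered matrices, 59457 barcodes were read. Of these, 4794 were set aside as probable doublets, scored against 2 simulated doublets per barcode. They were taken at a share that grew with the barcodes called in a library. Barcodes outside these with at least 750 genes and at most 20% mitochondrial UMIs were kept, which left 24060. Cells were integrated and clustered in R 4.3.3 with Seurat 5.3.0 and sctransform 0.4.2 on 2000 variable genes that excluded the lipogenesis lists (30 components, 20 neighbours, resolution 0.4). A cluster was named, with the suffix like, when over 50% of a marker list had a mean at least 2 times the median cluster and UMIs in at least 10% of cells. Cluster 2 met the rule for early progenitors but was left unnamed after its leading genes were seen, since they go against that name. Cluster 4 met the rule for Paneth cells, with 9 of 10 markers, but was left unnamed because genes of damaged droplets led it. Clusters 3, 6 and 18 met no rule, and cluster 15 of the enterocyte-like cells was led by interferon genes. Names are rebuilt from markers and not the authors' own.

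Counts were summed by class and library and divided by the class total (CPM), with classes under 20 cells left out of comparisons. Sums under 3 UMIs were set to 3 in ratios. Level intervals are exact Poisson, ratio intervals exact conditional binomial and shares exact binomial, all at 95% and covering counting error only. Shares were also thinned to an expected 1500 UMIs per cell, which left out 1 of 1606 enterocyte-like cells in HFD sham villi and none in the other libraries. All 10 members were named, with at most the 2 highest and 2 lowest genes of each further list and the 5 genes most like Scd1. One gene that this rule names is not reported here. The ratio calculation was tested on simulated data. Intervals and sums were computed with scipy 1.17.1 and numpy 2.4.6 in Python 3.11.15, doublet scores with scikit-learn 1.9.0, tables with pandas 2.3.3 and plots with matplotlib 3.10.9. Alternatives covered free RNA, scaling, filters, doublets, resolution and the choice of cells. Those on single cells, clusters 0 and 1, and barcodes with B cell genes were chosen after seeing the data. The annotation release of the authors' reference was not given in the sources used here, so positions are from GENCODE vM21.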

Additional observations from a re-analysis of the deposited data

Results flagged for a closer look

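For 3 members the same comparison gave opposite directions in crypts and villi, with counting intervals on opposite sides of 0 in enterocyte-like cells. The difference between compartments was not tested in any of them, since each value rests on 1 library per group. Elovl6 had a log2 ratio of HFD VSG over HFD sham of −0.22 (−0.40 to −0.03) in crypts and 0.55 (0.45 to 0.66) in villi. Srebf1 had a log2 ratio of HFD sham over LFD sham of −0.36 (−0.50 to −0.22) in crypts and 0.38 (0.21 to 0.55) in villi. Mlxipl had a log2 ratio of HFD VSG over HFD sham of 0.19 (0.09 to 0.28) in crypts and −0.24 (−0.33 to −0.15) in villi. The median of all genes in that comparison was 0.095 in crypts, inside the Mlxipl interval, and −0.030 in villi.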

How the results depend on the processing

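No paired analysis was possible because each group has 1 library per compartment and the labels carry no replicate numbers. Of 403 alternative values for the 31 ratios past 0.5, 390 kept their direction and 358 stayed past 0.5. The Scd1 ratio of HFD VSG over HFD sham kept its direction and side of 0.5 under the 13 alternatives tried, with −2.90 in villi at 10% mitochondrial UMIs the value farthest from −3.73.

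The Scd1 ratio of HFD sham over LFD sham in crypts became 0.20 with free RNA subtracted by the fractions the study states, where the median of all genes moved to 0.15, and 0.43 at 10% mitochondrial UMIs. In villi it was −1.67 at 10% mitochondrial UMIs, 0.97 with at least 1500 genes, 0.93 over all epithelial cells, 1.10 in clusters 0 and 1, 1.10 without barcodes with B cell genes, and 0.56 at 10% mitochondrial UMIs without those barcodes, a setting chosen after seeing the data that left both crypt ratios and, to 2 decimals, the villus ratio of HFD VSG over HFD sham as at 10% alone.

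Counts of members past 0.5 follow with the share of all genes past it under the same setting. For HFD sham over LFD sham in crypts they were 1 of 4 at 10% mitochondrial UMIs (12.4% of genes), with or without the B cell barcodes, and 5 of 10 with no UMI minimum (38.7%). In villi they were 5 of 8 at 10% mitochondrial UMIs (17.8%), 3 of 8 there without the B cell barcodes (15.2%) and 6 of 10 over all epithelial cells (24.3%). Between HFD VSG and HFD sham in crypts they were 1 of 8 past a size of 1 (1.46%) and 5 of 10 with no UMI minimum (36%). In villi they were 3 of 8 at 10% mitochondrial UMIs (41.1%, or 41% without the B cell barcodes), 3 of 10 over all epithelial cells (46.4%), 3 of 9 past a size of 1 (8.89%), 3 of 9 with totals without mitochondrial and damaged-droplet genes (37%) and 2 of 5 with at least 200 UMIs (33.6%). For HFD VSG over LFD sham in villi they were 3 of 8 at 10% mitochondrial UMIs (43.5%), 2 of 8 there without the B cell barcodes (42.1%) and 3 of 9 past a size of 1 (9.13%).

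Beside the Scd1 diet ratios above, which were under 0.5, sign changes among ratios past 0.5 were all of Scd2 and Fasn. For HFD sham over LFD sham in crypts, Scd2 was 0.56 with free RNA fractions from immune-like cells, and Fasn was −0.37 at 10% mitochondrial UMIs, with or without the B cell barcodes, and −0.19 over all epithelial cells. In the VSG to HFD sham ratios of crypts, Scd2 was −0.13 and Fasn 0.87 at 10% mitochondrial UMIs, again with or without those barcodes, and Fasn was 0.027 with the stated fractions and 0.40 over all epithelial cells. In the VSG to LFD sham ratios, Scd2 in crypts was 1.03 with immune-based fractions and 0.021 over all epithelial cells, and Fasn in villi was −0.081 over all epithelial cells. The cause was not tested.

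The Scd1 level in enterocyte-like cells became 14.2 CPM in LFD sham crypts, 13.6 in HFD sham crypts, 4.43 in HFD VSG crypts, 10.9 in LFD sham villi and 13 in HFD sham villi with immune-based free RNA fractions, 13.8 and 13.2 in HFD sham crypts and villi with the stated fractions, and 5.35 in LFD sham villi without barcodes with B cell genes. Thinning moved the Scd1 shares down from 12, 11.6 and 4.32% in crypts and 9.49, 11.5 and 2.38% in villi. Depth limits Scd2 and Fasn, which had as few as 1 and 21 UMIs in a library.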
